A study of Homo sapiens with 6 samples.

Results

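CPA4, MGP, AQP1 and C3orf80 were almost without reads in A673 cells given a scrambled siRNA and were counted in every library of cells given siRNA against FLI1. These 4 genes, of 27234 in the count table, were chosen by their read counts in this very comparison: each had at most 3 counts summed over the 3 scrambled-siRNA libraries (siControl) and at least 30 summed over the 3 libraries of the FLI1 siRNA (siFLI1). The limits alone are met by 30 rows, of which these 4 were picked by name. The difference between the groups is therefore a description of the choice and was not tested. A673 is an established human cell line of Ewing sarcoma, driven by the fusion protein EWS-FLI1. Both groups are this 1 line, transfected in triplicate and harvested 48 h later, and they differ by the siRNA alone as far as the labels state. RNA was read at the 3' ends of polyadenylated transcripts, and the siRNA sequence is not known here.

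In EWS-FLI1, the activating region of EWSR1 is fused with the ETS domain of FLI1, which binds DNA at GGAA. The fusion is known as an activator of some genes and a repressor of others, among them genes of mesenchymal cells, from which Ewing sarcoma may arise. CPA4 encodes a secreted carboxypeptidase that removes hydrophobic residues from the ends of peptides, and it lies in an imprinted cluster. MGP, matrix Gla protein, is a small secreted protein that depends on vitamin K and keeps cartilage and vessel walls from calcifying. AQP1 is the water channel of red blood cells, capillaries and kidney tubules. C3orf80 encodes a protein without a settled function.

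The promoter sequences of CPA4, AQP1 and C3orf80 are shown because these genes were near silent in one group and read in every library of the other. They come from RefSeq (GRCh38.p14), which matched 3 of the 4 symbols, and run 5′ to 3′ on the plus strand from 250 bases before to 50 bases after the RefSeq start. Capitals mark matches on either strand, and overlapping matches run together. The motifs searched were TGANTCA for AP-1 factors, GGAATG for TEAD factors, TATAAA for the core promoter box of that name, and GGAAGGAA, which is a pair of ETS cores. CPA4 is shown at chr7:130292911-130293210, AQP1 at chr7:30911603-30911902 and C3orf80 at chr3:160225172-160225471.
CPA4: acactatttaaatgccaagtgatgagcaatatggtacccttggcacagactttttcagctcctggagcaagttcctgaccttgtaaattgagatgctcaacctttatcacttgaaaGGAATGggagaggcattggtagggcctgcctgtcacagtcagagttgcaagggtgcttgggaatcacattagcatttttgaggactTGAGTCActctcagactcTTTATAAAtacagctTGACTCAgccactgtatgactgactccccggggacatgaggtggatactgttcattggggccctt
AQP1: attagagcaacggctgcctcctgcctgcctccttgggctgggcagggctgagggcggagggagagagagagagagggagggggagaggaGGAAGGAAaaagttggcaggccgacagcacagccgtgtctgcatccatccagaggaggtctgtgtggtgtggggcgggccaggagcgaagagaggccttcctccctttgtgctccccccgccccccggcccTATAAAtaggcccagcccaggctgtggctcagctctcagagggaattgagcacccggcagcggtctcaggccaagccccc
C3orf80: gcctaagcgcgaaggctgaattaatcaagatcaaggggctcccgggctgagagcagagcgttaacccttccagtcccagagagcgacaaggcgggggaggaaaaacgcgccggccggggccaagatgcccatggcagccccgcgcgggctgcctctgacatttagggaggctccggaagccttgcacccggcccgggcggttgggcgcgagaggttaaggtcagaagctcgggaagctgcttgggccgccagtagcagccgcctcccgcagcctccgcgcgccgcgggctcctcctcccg

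The CPA4 window held 2 AP-1 matches, TGAGTCA starting 48 bases and TGACTCA starting 15 bases before the RefSeq start. A TATA box match started 28 bases before it, overlapping a match on the other strand, and a TEAD match 134 bases before it. Of 35116 RefSeq promoters of this length, 7.71% held an AP-1 match and 0.515% held 2 or more, 14.03% held the TEAD letters and 11.5% the TATA box letters. The AQP1 window held a TATA box match 30 bases before the start and the GGAAGGAA pair, which 3.67% of all promoters held, 161 bases before it. None of these 4 motifs was found in the C3orf80 window. The ETS core GGAA alone, which 95.5% of promoters held with a median of 3 matches, occurred 3 times in CPA4 and 4 times each in AQP1 and C3orf80. Promoter GC content was 46.3% for CPA4, 65.3% for AQP1 and 68% for C3orf80, against a median of 58.7% over all promoters. The table's own starts differ from the RefSeq starts used here. The row of C3orf80 starts 214 bases after, that of AQP1 159 bases before, so that its TATA box match lies within the row, and that of CPA4 27 bases before, so that its AP-1 match at 15 bases does. Such matches describe the letters of these windows only.

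The siRNA target came first. FLI1 was at 19.0, 42.5 and 24.1 CPM (counts scaled to a library total of 1e+06 and by the trimmed mean of M values, TMM) in siFLI1 replicates 1, 2 and 3, and at 63.0, 69.1 and 62.4 CPM in siControl. All 3 siFLI1 libraries lay below the siControl libraries, and the log2 change of -1.16 ± 0.36 (SE) missed the threshold (adjusted p = 0.17, Benjamini-Hochberg, from edgeR's quasi-likelihood fit). Counts per library ranged from 417145 to 1893606. The smallest sum was that of siFLI1 replicate 3, where it was 10.1% of the total in the column header against 41.2% to 61.0% elsewhere, yet 14606 genes had a count there against 14024 to 14678 in the other 5 libraries. On the first principal component this library was also set off from the rest (76.1 against -29.9 to 2.68), and siControl replicate 1 on the third (-42.7 against -11.8 to 30.7). One count was worth 2.68 CPM in siFLI1 replicate 3 and 0.539 to 0.855 CPM elsewhere. Of 11 Ewing sarcoma markers all had counts, with summed levels of 1269 to 1947 CPM in siFLI1 and 2652 to 3880 CPM in siControl. Most of the sum was CCND1 (mean 894 against 2041 CPM, edgeR adjusted p = 0.275) and STEAP1 (379 against 688 CPM, adjusted p = 0.184). Of 10 tested markers edgeR called 0 higher and 1 lower, NR0B1, where 1.34% and 0.117% of all 9420 tested genes were called. PAPPA was above 0, at 0.46 on the log2 scale.

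Near silence in siControl was common, and few such rows had many reads in siFLI1. Of the 27234 rows, 13731 had at most 3 counts over the siControl libraries, and 30 of these, 0.218%, had at least 30 counts over the siFLI1 libraries. The mirror pattern, at most 3 siFLI1 counts with at least 30 in siControl, held for 13 rows. With siControl counts scaled to the smaller pooled depth of siFLI1 (factor 0.775), these numbers were 30 and 4. The 30 could not change, since this scaling moves no whole siControl count across the limit of 3. Only the mirror number could fall, so the pair is no even comparison of the 2 directions. Of the 4 genes, C3orf80, with 34 siFLI1 counts, and AQP1, with 3 siControl counts, lay nearest the limits. Just outside lay PPP2R2B and ZSWIM2, with 29 and 28 siFLI1 counts and 2 siControl counts each, all siFLI1 counts of both being in replicate 3. COL6A3 (369 against 5 counts) and the polo-like kinase PLK2 (285 against 5) missed the siControl limit.

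**Figure D1:**
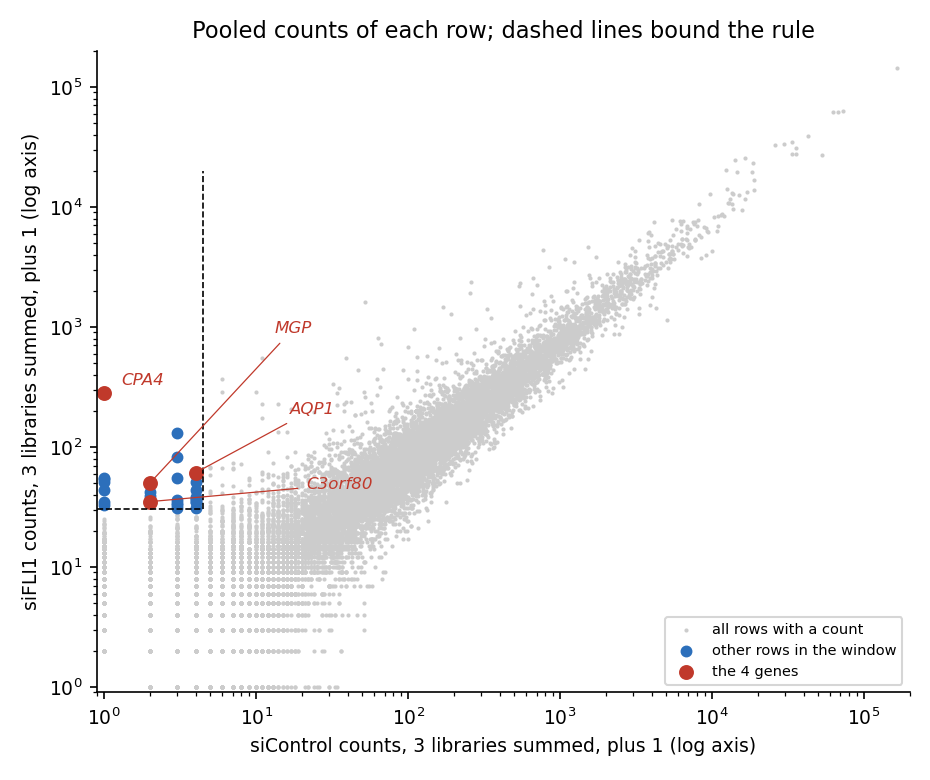
Counts of each row summed over the 3 siFLI1 libraries (vertical, log axis) and the 3 siControl libraries (horizontal, log axis), each plus 1. Dashed lines bound the window of at most 3 siControl and at least 30 siFLI1 counts; CPA4 is the highest of its 30 rows, at 278 counts against 0.

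CPA4 had the most reads of the 4. Its row (NM_016352, chromosome 7, 130293134 to 130324180, plus strand, hg38) follows a transcript of 11 exons. It had 118, 117 and 43 counts in siFLI1 replicates 1, 2 and 3, which is 66.0, 77.7 and 115 CPM, and 0 counts in each siControl library. The siFLI1 mean was 86.3 ± 25.7 CPM (SD, n = 3). The pooled siFLI1 level was 120-fold higher than pooled siControl set at a floor of 3 counts over that group. This is a bound by that floor alone and leaves out counting error. The exact conditional 95% interval, which takes the 0 siControl counts without a floor, had a lower limit of 96.6. The bound against the floor was 71.5 without siControl replicate 1 and 76.7 without siControl replicate 2, since it scales with siControl depth. The groups did not overlap for any of the 4 genes. That follows from the limits they were chosen by and from the filter on low counts, and is no result. Of the 9420 tested genes, 8.93% had every siFLI1 library above every siControl library. Replicate 3 was the highest, and its 95% counting interval of 83.3 to 155 CPM did not overlap that of replicate 1, 54.6 to 79.0 CPM. In bulk RNA, more cells with the transcript and more transcript per cell cannot be told apart.

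MGP (NM_001190839, chromosome 12, 14880864 to 14886062, minus strand; 5 exons) varied most between the siFLI1 libraries. It had 25, 13 and 11 counts there, or 13.98, 8.64 and 29.5 CPM, and 1, 0 and 0 counts in siControl. The siFLI1 mean of 17.4 ± 10.8 CPM (SD, n = 3) rests in part on the shallow replicate 3, which held 22.4% of the siFLI1 counts of MGP (exact 95% interval 11.8% to 36.6%) and 10.2% of the siFLI1 depth. The ratio of pooled levels was 63.3 (95% counting interval 10.8 to 2549), 54.7 without siFLI1 replicate 3 and 40.5 without siControl replicate 2. Without siControl replicate 1, which held the 1 siControl count, MGP was 12.6-fold higher against the floor.

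AQP1 (NM_198098, chromosome 7, 30911694 to 30925517, plus strand, 4 exons) had close levels in the deep siFLI1 libraries, replicates 1 and 2. Their 95% counting intervals of 11.8 to 24.6 and 10.7 to 24.5 CPM are wide, so evenness is not shown. Counts of 31, 25 and 4 gave 17.3, 16.6 and 10.7 CPM in siFLI1, against 0, 2 and 1 counts, or 0, 1.17 and 0.855 CPM, in siControl. The means were 14.9 ± 3.63 and 0.675 ± 0.606 CPM (SD, n = 3), and the pooled ratio was 25.8 (95% counting interval 8.42 to 129). It ran from 15.4 without siControl replicate 1 to 49.6 without siControl replicate 2. In siFLI1 replicate 3 the 4 counts allow 2.92 to 27.4 CPM, which overlaps the interval of siControl replicate 3, up to 4.76 CPM, so that library alone does not resolve the difference.

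C3orf80 (NM_001168214, chromosome 3, 160225636 to 160228213, plus strand) is a single-exon gene, so its reads cannot be told from unspliced sequence by a junction. It had 17, 14 and 3 counts in siFLI1 and 0, 1 and 0 in siControl. The siFLI1 levels of 9.50, 9.30 and 8.03 CPM had the smallest spread of the 4 genes, with a mean of 8.95 ± 0.798 CPM (SD, n = 3; coefficient of variation 8.92%, against 24.4% for AQP1, 29.8% for CPA4 and 62.3% for MGP). The pooled ratio was 43.9 (95% counting interval 7.36 to 1784), or 26.2 without siControl replicate 1. Without siControl replicate 2, which held its 1 siControl count, C3orf80 was 9.37-fold higher against the floor. Counting intervals in siFLI1 replicates 1, 2 and 3 were 5.54 to 15.2, 5.08 to 15.6 and 1.66 to 23.5 CPM. These are wider than the spread above, so evenness is not shown. The last, from 3 counts, overlaps the intervals of siControl replicates 1, 2 and 3, up to 1.99, 3.26 and 3.15 CPM. That library alone does not resolve the difference. The intervals given here cover counting error only.

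**Figure D2:**
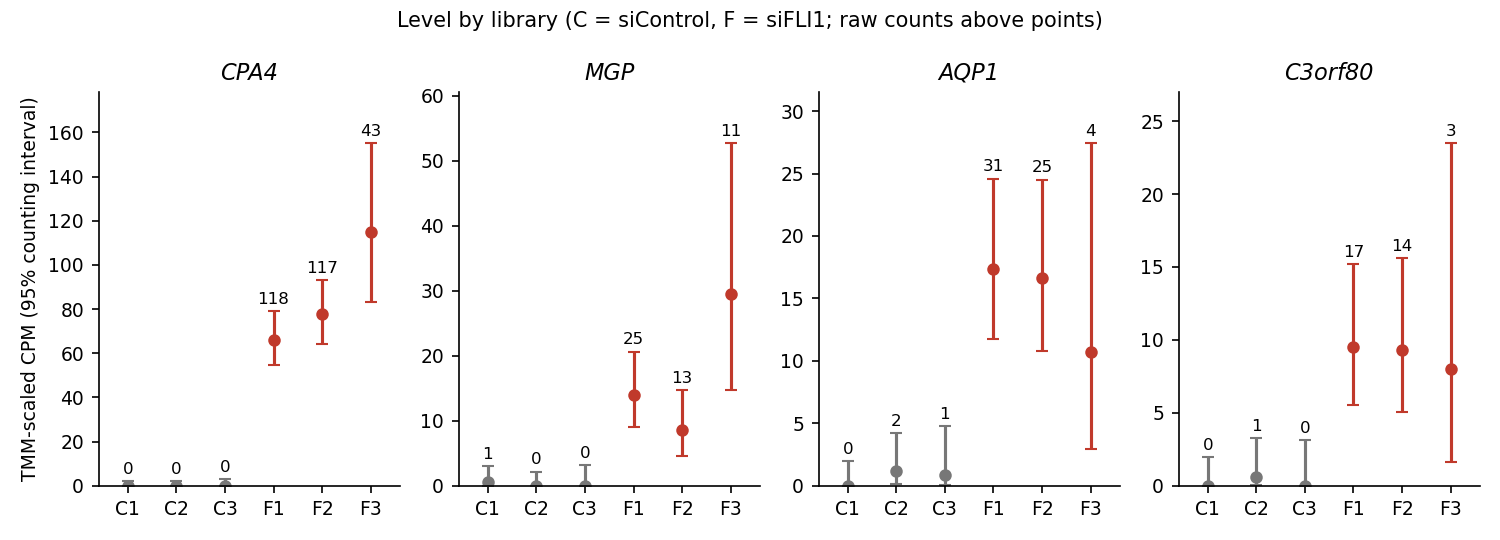
Level of CPA4, MGP, AQP1 and C3orf80 in each library in TMM-scaled CPM, with siControl (C) in grey and siFLI1 (F) in red; bars are exact 95% counting intervals and the numbers at each point are raw counts. Each siFLI1 point lies above each siControl point, and the intervals are widest in siFLI1 replicate 3.

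No other row of the table overlapped these rows, but GENCODE 29 places a read-through gene on the same strand over AQP1, and genes on the other strand over C3orf80 and MGP. The gene over AQP1, AC004691.2, begins upstream, where the row of FAM188B had 3 siFLI1 and 5 siControl counts. That over MGP, C12orf60, had 1 siFLI1 and 6 siControl counts. The gene over the 3' end of C3orf80, AC079594.2, covers IFT80, an intraflagellar transport gene with 25.1 ± 7.09 CPM in siFLI1 against 19.7 ± 16.2 CPM (SD, n = 3). The use of strand in counting is unknown here, and what these genes add to the counts was not tested.

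Of the 30 rows within the limits, 10 had no more than 50% of their siFLI1 CPM in any 1 library, and CPA4, AQP1 and C3orf80 were among these. The largest share of a row's summed siFLI1 CPM held by 1 library was 35.4% for C3orf80, 38.8% for AQP1, 44.5% for CPA4 and 56.6% for MGP, the last 2 in replicate 3. Over the 30 rows this share ran from 35.4% to 100%, with a median of 60.4%. It exceeded 50% in 20 rows, MGP included, and in 13 of these 20 the library was siFLI1 replicate 3. Of the 30 rows, 8 had no count in at least 1 siFLI1 library and 7 passed the filter on low counts, namely the 4 genes with EPGN, CDH13 and GLIS3. Passing required a minimum level in 3 libraries, which for these rows means every siFLI1 library, so the filter itself picks evenly spread rows.

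**Figure D3:**
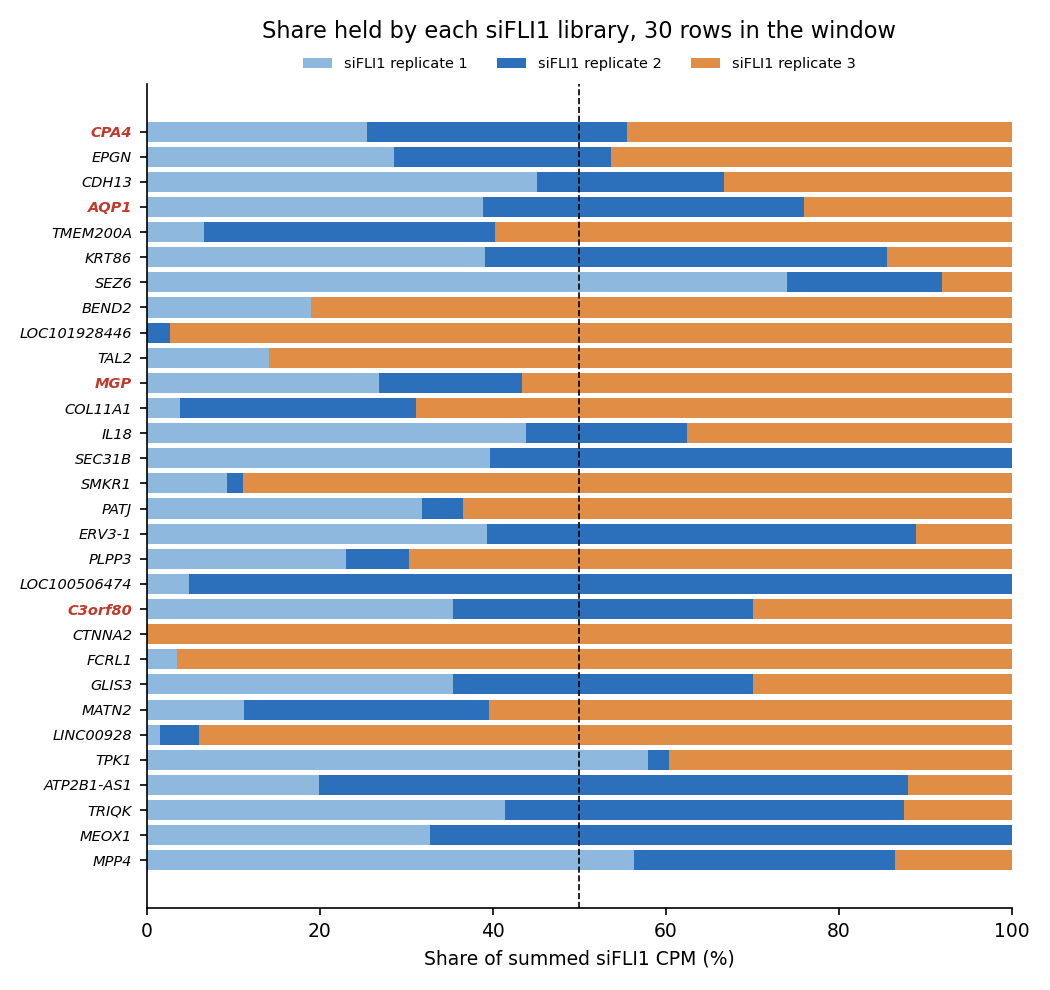
Share of each row's summed siFLI1 CPM (horizontal, %) held by siFLI1 replicates 1, 2 and 3, for the 30 rows of the window in order of siFLI1 counts. Names in red are the 4 genes; the dashed line is 50%, which 20 rows exceed in 1 library, MGP among them at 56.6%.

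The spread of reads over the libraries was compared between the 4 genes. As a measure of likeness, the share of a gene's summed CPM was taken in each of the 6 libraries, and the distance between genes was 0.5 times the sum of absolute differences, in percentage points. AQP1 and C3orf80 were the nearest pair, 6.35 points apart. CPA4 lay 13.6 points from MGP, 15.2 from C3orf80 and 21.5 from AQP1. MGP lay 27.7 points from C3orf80 and 34.1 from AQP1. Within siFLI1, CPA4 and MGP were highest in replicate 3, and AQP1 and C3orf80 lowest there, on 4 and 3 counts.

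Among the other tested genes, the nearest to CPA4 were the EGF receptor ligand EPGN (5.11 points), PLK2 (5.70) and ISLR, a protein of mesenchymal stromal cells (5.88). MGP had no gene as near, with EPGN at 11.2 points, the matrix protein NPNT (nephronectin) at 11.6 and TRAM2 at 13.2. Nearest to AQP1 were MIR503HG, the host transcript of miR-503 (2.41 points), MLPH, which links melanosomes to myosin (5.26), and HHIPL2 (5.69). Nearest to C3orf80 were the laminin chain LAMA4 (3.36), the zinc finger factor GLIS3 (3.78) and the collagen VI chain COL6A3 (4.16). GLIS3 had the same siFLI1 counts as C3orf80, 17, 14 and 3, and 3 siControl counts. The siControl shares of the 4 genes are low by the rule that chose them. A gene near them must therefore also hold most of its CPM in siFLI1, and that likeness is no result. These distances describe 6 libraries and carry no test.

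Of the genomic neighbours, MEST, in the cluster of CPA4, rose. MEST, a paternally expressed imprinted gene that encodes a hydrolase-like protein, lies 168 kb from CPA4. It had 150, 174 and 43 counts in siFLI1 and 23, 22 and 16 in siControl. Its level rose from 12.98 ± 0.65 to 105 ± 18.2 CPM (SD, n = 3), and the groups did not overlap. The log2 change was 3.00 ± 0.32 (SE), with an adjusted p of 9.95e-05 in edgeR. The call held in all 13 alternative fits, with log2 fold changes from 2.88 to 3.14. In edgeR 1.34% of the 9420 genes were called higher and 0.117% lower.

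Of the genes that follow CPA4 at higher coordinates, CPA5 had 2 siFLI1 and 0 siControl counts and CPA1 had none. Between CPA4 and MEST, the centrosomal gene CEP41 was at -0.43 ± 0.41 on the log2 scale (edgeR adjusted p = 0.791). Beyond MEST, the coatomer gene COPG2 was at 0.65 ± 0.50 (adjusted p = 0.715). On the other side of CPA4, KLHDC10 was at 0.93 ± 0.39 (adjusted p = 0.398), TMEM209 at -0.40 ± 0.42 and ZC3HC1 at -0.23 ± 0.28. Tested neighbours within 250 kb of CPA4 thus ran from -0.43 to 3.00 on the log2 scale, and the differences between them were not tested.

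Around the other 3 genes no neighbour was called. Beside MGP, ERP27 had 1 count in each group and ART4 none, ARHGDIB was at -0.73 ± 0.38 on the log2 scale (edgeR adjusted p = 0.536), and the splicing protein gene WBP11 and the histone gene H2AFJ were at -0.14 ± 0.29 and -0.12 ± 0.53. Untested for low counts, SMCO3 had 1 siFLI1 and 11 siControl counts and LINC01489 had 10 and 0, all 10 in siFLI1 replicate 3. Beside C3orf80, IFT80 was at 0.31 ± 0.54 (adjusted p = 0.898), the condensin subunit SMC4 at 0.06 ± 0.27, turning to -0.07 under scaling by total counts, and TRIM59 at -0.75 ± 0.72, and IL12A-AS1 had 1 count in all. Beside AQP1 none of 6 neighbours could be tested: GHRHR had no count, and ADCYAP1R1 had 8 siFLI1 counts, 7 of them in replicate 3, and 2 in siControl. In all, 40 rows lay within 250 kb of the 4 genes, 31 had a count, 12 were tested and 1 was called.

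**Figure D4:**
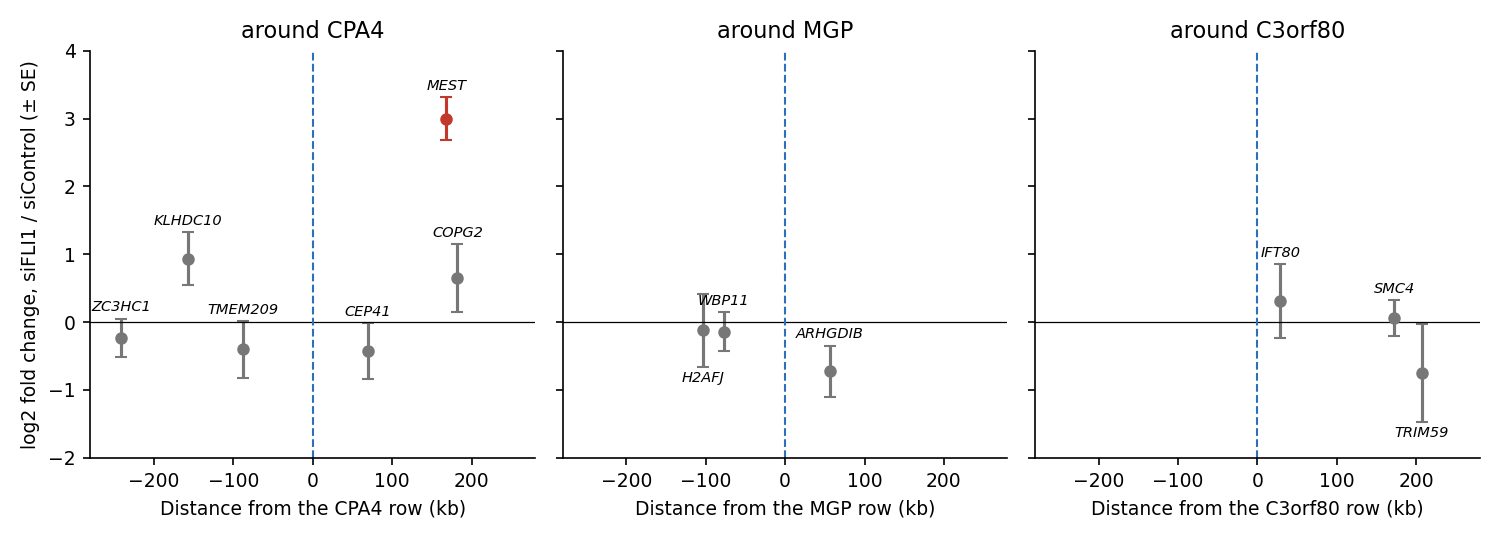
Log2 fold change of siFLI1 over siControl (vertical, ± SE) of the 12 tested neighbours against their distance from CPA4, MGP or C3orf80 (horizontal, kb; dashed line at 0). MEST, in red at 3.00, is the 1 neighbour that was called; AQP1 had no tested neighbour within 250 kb.

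None of the tested carboxypeptidase genes beside CPA4 passed the test. Of 18 other M14 carboxypeptidases and their inhibitors, 15 had a count and 7 were tested, and edgeR called 0 higher and 0 lower. Their median log2 change was 0.70, against 0.01 over the 9420 genes, and 5 of the 7 were above 0. CPB2, the plasma carboxypeptidase of fibrinolysis, had 9.18 ± 3.26 CPM with siFLI1 against 27.6 ± 3.40 CPM (SD, n = 3). Its log2 change was -1.53 ± 0.47 (edgeR adjusted p = 0.167). CPD, a membrane carboxypeptidase of the secretory path, was at 0.92 ± 0.32 (adjusted p = 0.251), and CPM, which sits on the cell surface, at 1.20 ± 0.63 (adjusted p = 0.534). At an unadjusted p below 0.05 these were 2 higher, CPD and LXN, and 1 lower, CPB2, of 7 tested, where 6.62% of the 9420 genes were higher and 4.13% lower. Latexin (LXN), an inhibitor of A-type carboxypeptidases, was at 39.3 ± 13.0 against 15.98 ± 14.8 CPM (SD, n = 3), and its log2 change was 1.26 ± 0.56 (edgeR adjusted p = 0.431). It was called in the fit without siFLI1 replicate 3 and siControl replicate 1 (2.35, adjusted p = 0.0312).

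Among genes of the vitamin K cycle and of calcification, NT5E and RUNX2 rose. GGCX, the enzyme that carboxylates MGP, had 39.3 ± 6.43 CPM with siFLI1 against 37.4 ± 7.74 CPM (SD, n = 3), and is named after its values were seen. Of 24 such genes 12 were tested, and edgeR called 2 higher and 0 lower, where 1.34% and 0.117% of the 9420 genes were called. The median log2 change was 0.34, against 0.01 over the 9420 genes. VKORC1, which recycles vitamin K, had 194 ± 34.3 CPM with siFLI1 against 147 ± 32.1 CPM (SD, n = 3). Its log2 change was 0.41 ± 0.26 (edgeR adjusted p = 0.641). PRRG4, a membrane Gla protein, was at 1.20 ± 0.63 (adjusted p = 0.545). That change rested largely on siFLI1 replicate 3, being 0.10 without that library and 0.39 with limma-voom. NT5E, the ectonucleotidase CD73, which makes adenosine and whose loss calcifies arteries, went from 235 ± 45.4 to 950.4 ± 128 CPM, with a log2 change of 2.02 ± 0.28 (edgeR adjusted p = 0.000921). RUNX2, the transcription factor of bone formation, had 33, 38 and 19 counts in siFLI1 and 3, 1 and 7 in siControl. Its log2 change was 3.54 ± 0.72 (edgeR adjusted p = 0.0231). That call was lost without siFLI1 replicate 2 or 3, without siControl replicate 1 or 2, and without both siFLI1 replicate 3 and siControl replicate 1, with adjusted p from 0.0507 to 0.148. In these 5 fits the log2 change was 2.84 to 3.66.

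Of the 13 other aquaporins, 6 had a count and 0 passed the filter, so none could be tested. AQP3, a water and glycerol channel, had 8, 18 and 6 counts in siFLI1 and 9, 10 and 1 in siControl, and AQP9 had 10 counts, all in siFLI1 replicate 3. Both are named after their values were seen.

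Markers of the cells in which AQP1 and MGP are best known were scarce. Of 14 endothelial and red blood cell markers 13 had a count, and their summed level was 20.6 to 32.1 CPM in siFLI1 and 7.03 to 24.2 CPM in siControl. The most abundant, the endothelial junction gene CLDN5, had 17, 8 and 1 counts in siFLI1 and 27, 6 and 4 in siControl. KDR, a VEGF receptor, had 4, 13 and 0 and then 8, 0 and 5, and EMCN had 7, 5 and 2 and then 2, 1 and 6. Among the defining endothelial genes, CDH5 and VWF had no count in siFLI1 and 2 and 3 in siControl, and TEK had none in any library. Of 12 chondrocyte and vascular smooth muscle markers 7 had a count, and the summed level was 29.6 to 42.8 CPM in siFLI1 and 11.3 to 24.6 CPM in siControl. Most of that difference lay in SOX9, at 25.5 ± 6.11 and 8.40 ± 4.56 CPM (SD, n = 3; log2 fold change 1.57 ± 0.54, edgeR adjusted p = 0.248). ACAN, COMP, MATN1, MYH11 and LMOD1 were at 0 in all 6 libraries. The part of such cells in the levels of AQP1 and MGP was not tested.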

How the data were processed

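The authors deposited raw counts per gene over exons for 6 libraries in 1 table, with 1 RefSeq transcript a gene. Per the labels' protocols, the libraries were a bulk form of MARS-seq. The submitters' processing notes list HISAT 0.1.5, HOMER, bcl2fastq and hg38. The labels' protocols mention molecular barcodes. Whether they were collapsed and whether strand was used are not stated there, and reads without collapsing are not independent molecules. Levels are TMM-scaled CPM computed here. Differences were tested with edgeR 4.0.16 in R 4.3.3 (filterByExpr, minimum count 10; glmQLFit with robust=TRUE, glmQLFTest, two-sided) on 9420 genes, with Benjamini-Hochberg adjustment over all of them and a threshold of 0.05. SEs are the log2 change over the root of the F statistic. Pooled ratios use counts over pooled scaled depths with an exact conditional 95% interval. At 0 siControl counts the ratio is a bound against a floor of 3 counts over the group. It leaves out counting error, so the interval can reach below it. The labels name no separate cultures, so p-values reflect library spread that could be technical. No pair of libraries in a group agreed within sampling noise (chi-square over degrees of freedom from 6.78 to 21.5).

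Genes and lists were chosen with earlier results of these data known. Named beside the 4 genes were the 4 listed genes of smallest p per family, called genes, neighbours within 250 kb with at least 10 counts or nearest on each side, rows at the limits of the rule, the 3 nearest profiles per gene, and the most abundant markers; not all are reported, and 1 neighbour is not reported here. Alternatives were other scalings, no filter, DESeq2 1.42.0, limma-voom (limma 3.58.1), a replicate block, leaving out each library, other windows and other count limits. Leaving out siFLI1 replicate 3 together with siControl replicate 1 was chosen after seeing the data.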

Additional observations from a re-analysis of the deposited data

How the results depend on the processing

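Across the fits without 1 library, genes called higher numbered 64 to 121 and genes called lower 1 to 7, against 126 and 11. With no low-count filter they were 306 and 62, with DESeq2 26 were lower, and under scaling by total counts 17. With the replicate block 99 were higher and 2 lower. Same-numbered libraries did not deviate together (correlations of -0.03, -0.01 and -0.05), so the numbers were not taken as pairs, and the block changed no call among the neighbours and pathway genes refitted with it. Without both libraries that stood apart 32 genes were lower, and 1 carboxypeptidase gene, LXN, and 1 calcification gene, NT5E, were higher. Without 1 library, 1 to 2 calcification genes and 0 carboxypeptidase genes were higher. Within 100 kb no neighbour was called, since MEST lies beyond that window.

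The CPA4 bound ran from 71.5 to 135 without 1 library and was 68.0 without both libraries that stood apart. It falls with siControl depth, since the floor is a fixed number of counts. Without 1 library, ratios ran from 15.4 to 49.6 for AQP1, from 40.5 to 79.2 for MGP and from 26.2 to 44.6 for C3orf80. Where the library with the 1 siControl count was left out, MGP and C3orf80 had bounds against the floor, 12.6 and 9.37, in place of ratios. The window held 8 to 55 rows without 1 library. It held 8 without siFLI1 replicate 1, CPA4 being the 1 of the 4 genes that stayed, and 16 without siFLI1 replicate 2, where C3orf80 dropped out. At no more than 1 siControl count it held 13 rows, with 3 of the 4 genes, from 20 siFLI1 counts 71, with all 4, and from 50 siFLI1 counts 10, with CPA4 and AQP1.

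Small changes of uncalled neighbours turned sign. Without 1 library H2AFJ ran from -0.40 to 0.22, IFT80 from -0.028 to 1.20, SMC4 from -0.14 to 0.27 and WBP11 from -0.38 to 0.033 on the log2 scale. Without both libraries that stood apart H2AFJ was at 0.0010 and SMC4 at -0.14. SMC4 was at -0.071 under scaling by total counts and -0.019 with limma-voom. The causes were not tested. With 1 to 3 counts in siControl, depth limits how large the ratios of MGP, AQP1 and C3orf80 can be shown to be.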

Other observations

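Other rows of the same window, of which the most abundant follow a rule and the rest were named after their values were seen, included signalling, adhesion and keratin genes. EPGN had 62, 46 and 21 counts in siFLI1 and 2 in siControl, the cadherin CDH13 had 52, 21 and 8 and 2, and TMEM200A had 8, 34 and 15 and 3. The hair keratin KRT86 had 26, 26 and 2 counts in siFLI1 and 0 in siControl, the cytokine IL18 28, 10 and 5 and 0, and TRIQK 16, 15 and 1 and 0. By contrast, CTNNA2 had 34 counts, all in siFLI1 replicate 3, and BEND2 had 28, 0 and 25. Of the mirror rows, ERICH5 had 36, 11 and 3 counts in siControl and 2 in siFLI1, FAM19A2 had 31, 10 and 9 and 3, and TRMT10A had 6, 38 and 1 and 3.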
